A study of Mus musculus with 16 samples.

Results

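The cell cycle was followed here through 50 genes of the spleen cells of the mouse, 30 that act in mitosis and 20 that act in DNA replication, out of 24532 genes measured. The genes were chosen by name and function, with earlier results of these data known, and all 50 passed the filter on low expression that left 11335 genes for testing. RNA was sequenced from sorted spleen cells of C57BL/6 mice at postnatal week 12, with 2 libraries in each of 8 groups. GM-CSF, a growth factor of myeloid cells, was given in 3 once-daily injections to the treated mice, and the control cDC1s and cDC2s came from control mice. GM-CSF cDC1s and control cDC1s were sorted as XCR1+33D1- cells, and GM-CSF cDC2s and control cDC2s as XCR1-33D1+ cells, of the CD11c-high MHC II+ gate that holds the classical dendritic cells (DCs). GM-CSF DC-Xs were the XCR1-33D1- cells of the same gate in treated mice. P-IV (Ly6C-MHC II+CD301b+, called GMiDCs in the study), P-III (Ly6C-MHC II+CD301b-) and P-I (Ly6C+) came from the CD11b+CD115-high cells of treated mice. By the study's account most DC-Xs are P-IV cells and some are P-III cells, so these groups overlap. All mice of 6 groups had received GM-CSF, and neither DC-Xs nor the CD115-high populations had an untreated counterpart among the libraries.

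A dividing cell copies its DNA in S phase and separates the copies in mitosis. Before S phase, the Mcm2 to Mcm7 helicase is loaded onto origins of replication, and the enzymes that make deoxynucleotides are produced. In G2 phase and mitosis a separate set of genes is transcribed, with the B-type cyclins, the mitotic kinases, the spindle motors and the machinery of cytokinesis among its products. Most of these genes are silent in resting cells, so that in a sorted population their mRNA rises with the share of cells in cycle. In bulk RNA a larger share of cells in cycle and more mRNA per cycling cell cannot be told apart.

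The sorted cells carried the markers of their labels. Xcr1, the chemokine receptor used in the cDC1 gate, read 169.5 and 258 FPKM in GM-CSF cDC1s and 188 and 235 FPKM in control cDC1s, and under 2 FPKM in every other library. Clec4a4, which encodes the 33D1 antigen, read 77.5 and 72.2 FPKM in GM-CSF cDC2s and 151 and 151 FPKM in control cDC2s. Mgl2, which encodes CD301b, was highest in P-IV with 773 and 803 FPKM and reached 402 and 435 FPKM in GM-CSF DC-Xs, and Ly6c2 was highest in P-I with 374 and 802 FPKM. Replicates correlated at 0.974 to 0.998 over the tested genes. The SD between replicates was 0.36 to 0.52 on the log2 scale in the 5 groups of the CD11c-high gate, against 0.14 to 0.22 in the 3 CD115-high groups.

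Between treated and control cDC1s and cDC2s, the mitotic and the replication genes did not move together. On the scale of log2(FPKM + 1), used for every mean and fold change below, the mean of the 30 mitotic genes was 5.72 and 6.28 in the 2 GM-CSF cDC2 libraries, against 3.97 and 4.10 in control cDC2s. It was 4.58 and 5.05 in GM-CSF cDC1s, against 3.59 and 3.997 in control cDC1s. Neither pair of groups overlapped. The mean of the 20 replication genes overlapped in cDC2s, with 4.59 and 5.59 in GM-CSF cDC2s and 4.62 and 4.74 in control cDC2s. In cDC1s it was 3.58 and 4.46 in GM-CSF cDC1s and 4.45 and 4.54 in control cDC1s, a difference of -0.47 beside a pooled replicate SD of 0.44.

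The balance between the 2 sets separated treated from control cells in both subsets. The mitotic mean minus the replication mean was 0.997 and 0.58 in GM-CSF cDC1s, against -0.86 and -0.54 in control cDC1s. It was 1.14 and 0.69 in GM-CSF cDC2s, against -0.65 and -0.64 in control cDC2s. The 4 control libraries were the only ones of the 16 in which the replication mean stood above the mitotic mean. The balance was 1.15 and 0.73 in GM-CSF DC-Xs, 0.20 and 0.03 in P-IV, 0.50 and 0.45 in P-III and 0.65 and 1.17 in P-I. These means describe the chosen genes, and no test was run on them.

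**Figure D1:**
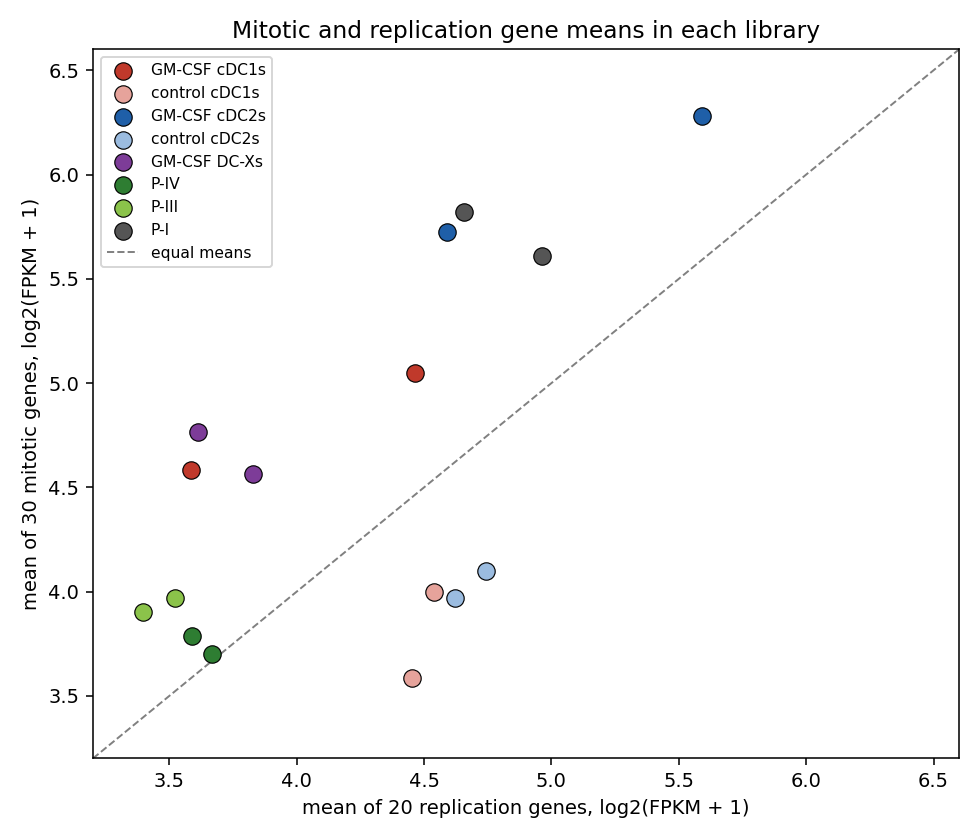
Mean log2(FPKM + 1) of the 30 mitotic genes (vertical axis) against that of the 20 replication genes (horizontal axis), 1 point per library, 2 libraries per group, with a dashed line where both means are equal. The 4 control libraries lie below the line at mitotic means of 3.59 to 4.10, and the 12 libraries from GM-CSF-treated mice lie above it.

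The promoters of the 2 sets held different elements. RefSeq promoters, 250 bases before to 50 bases after the transcription start on build GRCm38.p6, were found for 42 of the 50 genes, 25 mitotic and 17 replication genes, and for 27025 genes in all. Ccna2, Aurkb, Kif20a, Tpx2, Lmnb1, Mcm4, Gins2 and Ccne2 had none. The cell cycle genes homology region (CHR, TTTGAA), an element known from genes of G2 phase and mitosis, was searched on both strands. It was present in 20 of 25 mitotic genes (80%), in 2 of 17 replication genes (11.8%, Mcm2 and Cdc45) and in 20.2% of all genes of the table. Of its 29 matches in the 27 promoters of the mitotic genes, 21 were centred within 60 bases of the start. Ect2 and Prc1 had more than 1 start, and a site shared by their promoters was counted for each. The E2F element (TTTGGCGC, TTTCCCGC, TTTCGCGC or TTTGCCGC), known from genes of the G1/S transition, was present in 1 of 25 mitotic genes (4.0%), 8 of 17 replication genes (47.1%) and 2.6% of all genes.

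Elements that both sets share were the CCAAT box (CCAAT) and the SP1 element (GGGCGG). The CCAAT box was present in 88.0% of the mitotic genes, 64.7% of the replication genes and 41.1% of all genes, and the SP1 element in 84.0%, 82.4% and 38.2%. The E2F element overlapped a CCAAT box in Mcm7, and no other overlap between the 4 motifs was found among the members. The letters of the CHR were not in the windows of Ccnb1, Birc5, Bub1, Cenpe and Nusap1. A match describes the letters and is not a measured binding site.

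Promoters of 3 mitotic genes with a CHR and of 3 Mcm genes with an E2F element show the 2 elements. The 3 mitotic genes rose with GM-CSF in both subsets or in cDC2s, and the 3 Mcm genes were called in neither. Of Mcm2 to Mcm7, 5 had a promoter, 4 of them with the E2F element, and Mcm2 had the CHR and no E2F element. Capitals mark the CHR in Plk1 (chr7:122159185-122159484, plus strand), Ccnb2 (chr9:70421505-70421804, minus strand) and Cdc20 (chr4:118437294-118437593, minus strand). Capitals mark the E2F element on either strand in Mcm3 (chr1:20820263-20820562, minus strand), Mcm5 (chr8:75109259-75109558, plus strand) and Mcm6 (chr1:128359656-128359955, minus strand). Overlapping matches run together in Mcm5 and Mcm6. The sequences are from RefSeq on build GRCm38.p6, in the direction of transcription.
Plk1: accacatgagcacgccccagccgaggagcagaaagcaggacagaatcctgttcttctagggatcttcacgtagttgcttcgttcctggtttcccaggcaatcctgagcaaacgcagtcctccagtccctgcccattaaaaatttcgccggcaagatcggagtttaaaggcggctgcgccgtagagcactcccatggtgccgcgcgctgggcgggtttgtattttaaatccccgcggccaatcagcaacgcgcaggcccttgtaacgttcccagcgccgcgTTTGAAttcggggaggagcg
Ccnb2: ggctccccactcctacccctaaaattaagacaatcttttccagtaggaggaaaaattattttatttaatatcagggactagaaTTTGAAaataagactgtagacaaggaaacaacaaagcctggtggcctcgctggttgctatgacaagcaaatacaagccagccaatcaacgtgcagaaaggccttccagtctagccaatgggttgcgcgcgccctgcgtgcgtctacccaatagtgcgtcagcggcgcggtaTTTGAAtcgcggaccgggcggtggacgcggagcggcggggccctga
Cdc20: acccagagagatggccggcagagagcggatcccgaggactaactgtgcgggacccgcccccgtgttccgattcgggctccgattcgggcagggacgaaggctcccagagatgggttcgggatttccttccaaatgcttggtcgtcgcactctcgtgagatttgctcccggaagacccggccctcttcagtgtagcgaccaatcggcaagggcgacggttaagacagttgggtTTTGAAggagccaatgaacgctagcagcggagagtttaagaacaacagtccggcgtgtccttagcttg
Mcm3: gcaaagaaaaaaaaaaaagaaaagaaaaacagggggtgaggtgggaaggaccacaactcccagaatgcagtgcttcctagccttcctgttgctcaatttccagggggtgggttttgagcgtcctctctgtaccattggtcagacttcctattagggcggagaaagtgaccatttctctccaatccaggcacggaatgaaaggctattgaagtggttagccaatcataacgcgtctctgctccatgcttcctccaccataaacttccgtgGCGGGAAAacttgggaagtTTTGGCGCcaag
Mcm5: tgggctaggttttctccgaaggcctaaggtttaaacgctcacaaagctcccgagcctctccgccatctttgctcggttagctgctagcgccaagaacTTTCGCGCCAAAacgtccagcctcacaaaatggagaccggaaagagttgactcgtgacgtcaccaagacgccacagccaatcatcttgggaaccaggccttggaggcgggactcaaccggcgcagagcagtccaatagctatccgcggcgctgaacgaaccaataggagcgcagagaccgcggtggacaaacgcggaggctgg
Mcm6: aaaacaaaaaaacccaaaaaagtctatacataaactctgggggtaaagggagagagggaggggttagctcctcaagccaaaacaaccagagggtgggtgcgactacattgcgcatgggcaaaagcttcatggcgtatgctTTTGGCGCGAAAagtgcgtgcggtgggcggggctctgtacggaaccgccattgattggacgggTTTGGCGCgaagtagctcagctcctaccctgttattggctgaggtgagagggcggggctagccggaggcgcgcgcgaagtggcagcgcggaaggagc

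**Figure D2:**
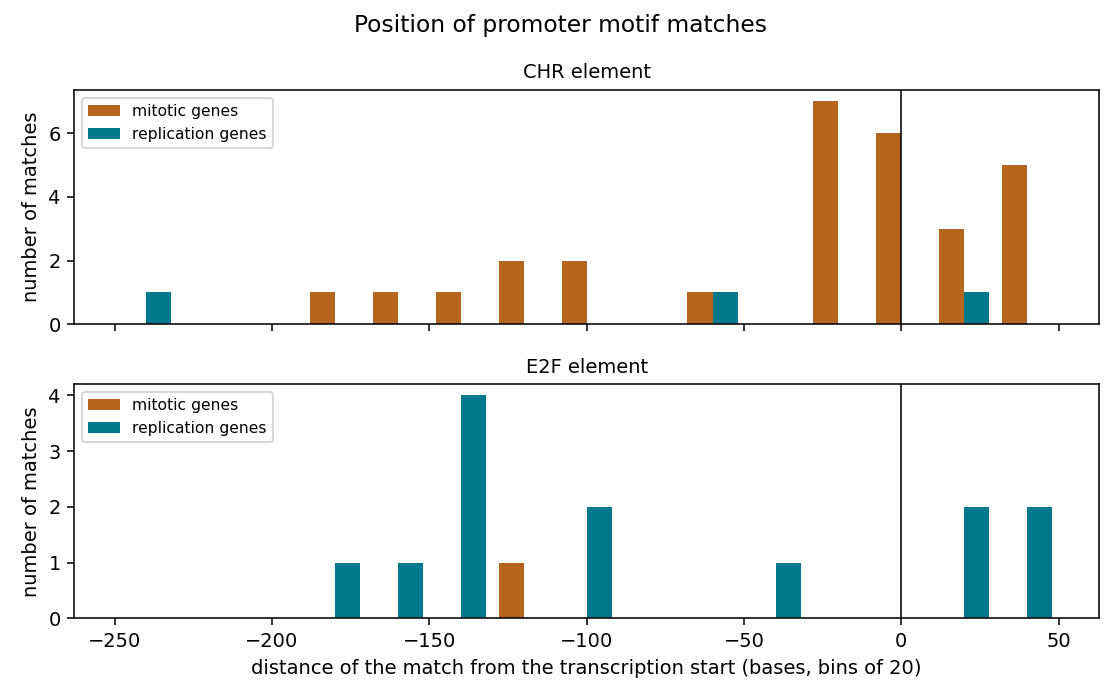
Number of CHR matches (upper panel) and E2F matches (lower panel) by distance of the match centre from the transcription start, in bins of 20 bases, in 25 mitotic and 17 replication genes (27 and 19 promoters). A site shared by promoters of the same gene is counted for each. The 29 CHR matches of mitotic genes gather around the start (median -12 bases), and 13 of the 14 E2F matches belong to replication genes.

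GM-CSF cDC2s showed higher mRNA of nearly all mitotic genes than control cDC2s, whereas 1 replication gene passed the test. Of 30 mitotic genes 25 rose and 0 fell, where 3.21% of all tested genes rose. A gene was called when its adjusted p was below 0.05 and the log2 fold change was 1 or more in either direction (limma, Benjamini-Hochberg over 11335 genes). The median log2 fold change of the mitotic genes was 1.97, that of the 20 replication genes 0.43 and that of all genes tested 0.02. Only Rrm2 rose among the replication genes, and none fell. In 29 of 30 mitotic genes both GM-CSF cDC2 libraries stood above both control cDC2 libraries, where 25.0% of all genes did so.

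The cyclins and their kinase rose as a group, 4 of 4. Ccnb1, the B-type cyclin that drives entry into mitosis, read 104 and 215 FPKM in GM-CSF cDC2s, against 19.9 and 26.3 FPKM in control cDC2s. The lower treated library stood far above both controls, and the log2 fold change was 2.65 ± 0.36 (SE, adjusted p = 0.00118). Ccna2, the cyclin of S phase and G2, read 94 and 176 FPKM in GM-CSF cDC2s and 37.7 and 33.5 FPKM in control cDC2s, a change of 1.83 ± 0.29 (SE, adjusted p = 0.0028). Cdk1, the kinase that these cyclins activate, read 22.1 and 44.6 FPKM in GM-CSF cDC2s and 7.62 and 10.6 FPKM in control cDC2s, a change of 1.70 ± 0.33 (SE, adjusted p = 0.00904). In all 3 genes the 2 groups did not overlap.

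Of the mitotic kinases and the spindle checkpoint, 6 of 7 rose. Plk1, a kinase of mitotic entry and spindle assembly, read 86.7 and 161 FPKM in GM-CSF cDC2s and 22.1 and 15.7 FPKM in control cDC2s, a change of 2.60 ± 0.33 (SE, adjusted p = 0.000887). Ttk, the checkpoint kinase known as Mps1, read 7.14 and 12 FPKM in GM-CSF cDC2s and 0.169 and 2.25 FPKM in control cDC2s. Its 2 control libraries lay far apart, and its change was 2.40 ± 0.45 (SE, adjusted p = 0.00763). Bub1, another checkpoint kinase, was not called, with 15.5 and 39.4 FPKM in GM-CSF cDC2s and 10.7 and 7.56 FPKM in control cDC2s (log2 fold change 1.37, adjusted p = 0.0805). Birc5, which encodes the chromosomal passenger survivin, read 159 and 263 FPKM in GM-CSF cDC2s and 49.98 and 53.4 FPKM in control cDC2s.

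Chromosome segregation genes followed. Cdc20, which activates the anaphase-promoting complex, read 146 and 256 FPKM in GM-CSF cDC2s and 35 and 34.2 FPKM in control cDC2s, a change of 2.44 ± 0.27 (SE, adjusted p = 0.000387). Ube2c, the ubiquitin-conjugating enzyme of the same complex, read 168 and 320.2 FPKM in GM-CSF cDC2s and 51.8 and 49.8 FPKM in control cDC2s. Both genes were several times higher in each treated library than in either control. All 5 spindle genes rose, among them Kif2c, a microtubule depolymerase at centromeres, and Ckap2l, a spindle protein. Kif2c read 38.2 and 73.9 FPKM in GM-CSF cDC2s and 8.53 and 8.81 FPKM in control cDC2s, and Ckap2l changed by 2.82 ± 0.43 (SE, adjusted p = 0.00242). All 5 genes of the midzone and cytokinesis rose, with log2 fold changes of 1.66 to 2.45, the kinesin Kif20a the highest of them.

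Of the centromere and kinetochore genes 2 of 4 rose. Cenpn changed by 3.04 ± 0.60 (SE, adjusted p = 0.00956), or by 1.68 without control cDC2s replicate 1, and read 24.7 and 33.6 FPKM in GM-CSF cDC2s and 0.402 and 8.34 FPKM in control cDC2s. Replicate 1 of control cDC2s read under 1 FPKM for Cenpn, as it did for Ttk. Cenpa, the histone H3 variant of centromeres, changed by 2.19 ± 0.23 (SE, adjusted p = 0.000254). Cenpe and Cenpf, 2 large proteins of the kinetochore, were not called (adjusted p = 0.0779 and 0.0658). Of the 3 chromatin and lamina genes, Top2a, the topoisomerase that untangles sister chromatids, rose by 1.36 ± 0.35 (SE, adjusted p = 0.0361). Lmnb1, which encodes lamin B1, read 21.1 and 27.5 FPKM in GM-CSF cDC2s and 38.6 and 21.6 FPKM in control cDC2s, and its groups overlapped.

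Most replication genes of cDC2s did not pass the test, and in 7 of 20 both GM-CSF libraries stood above both controls, where 25.0% of all genes did so. Pcna, the sliding clamp of DNA polymerase, changed by -0.04 ± 0.25 (SE, adjusted p = 0.962). Mcm2, of the replicative helicase, read 23.1 and 63.9 FPKM in GM-CSF cDC2s and 37 and 45.1 FPKM in control cDC2s, and Mcm5 read 51 and 123 FPKM in GM-CSF cDC2s and 59.7 and 64.7 FPKM in control cDC2s. In both, one treated library stood below and the other above the 2 controls. The log2 fold changes of Mcm2 to Mcm7 ran between -0.21 for Mcm6 and 0.69 for Mcm7 (adjusted p = 0.25), with standard errors of 0.33 to 0.48. Rrm2, the regulated subunit of ribonucleotide reductase, read 122 and 193 FPKM in GM-CSF cDC2s and 64 and 53.2 FPKM in control cDC2s, a change of 1.38 ± 0.27 (SE, adjusted p = 0.00895). Tk1, thymidine kinase, read 40.9 and 92.7 FPKM in GM-CSF cDC2s and 22.4 and 31.2 FPKM in control cDC2s and was not called (log2 fold change 1.19, adjusted p = 0.0673).

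The cDC2 result depended on how the spread between replicates was estimated. A fit of these 4 libraries alone called 0 of the 50 genes and 0 of all 11335 genes. In that fit 28 mitotic genes had an unadjusted limma p under 0.05, as did 1482 of the 11335. Without 1 of the 4 libraries the difference of the mitotic mean ran from 1.69 to 2.24. A set of 16 of the 25 mitotic genes was called in every fit that left out 1 of the 4 libraries, among them Ccnb1, Ccnb2, Plk1, Cdc20 and Aurkb. Summed markers of neutrophils and their precursors (11 genes) were 6.99 and 16.5 FPKM in GM-CSF cDC2s and 5.72 and 2.55 FPKM in control cDC2s. In GM-CSF cDC2s 2 markers, S100a8 and Ngp, reached 1 FPKM in both libraries, and in control cDC2s none did. Camp overlapped, with 0.87 and 0.79 FPKM in GM-CSF cDC2s and 1.15 and 0.11 FPKM in control cDC2s. Summed T cell markers were 30.6 and 30.9 FPKM in GM-CSF cDC2s and 73.1 and 58.7 FPKM in control cDC2s. The T cell sum was mostly Tcf7 in control cDC2s, which read 5.44 and 7.31 FPKM in GM-CSF cDC2s and 52.5 and 40.8 FPKM in control cDC2s. Cd5 stood the other way, with 18 and 21.9 FPKM in GM-CSF cDC2s and 10.1 and 13.9 FPKM in control cDC2s, and Cd3e read 1.5 and 0.295 FPKM in GM-CSF cDC2s and 0.595 and 0.372 FPKM in control cDC2s. The part of these cells in the result was not tested.

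**Figure D3:**
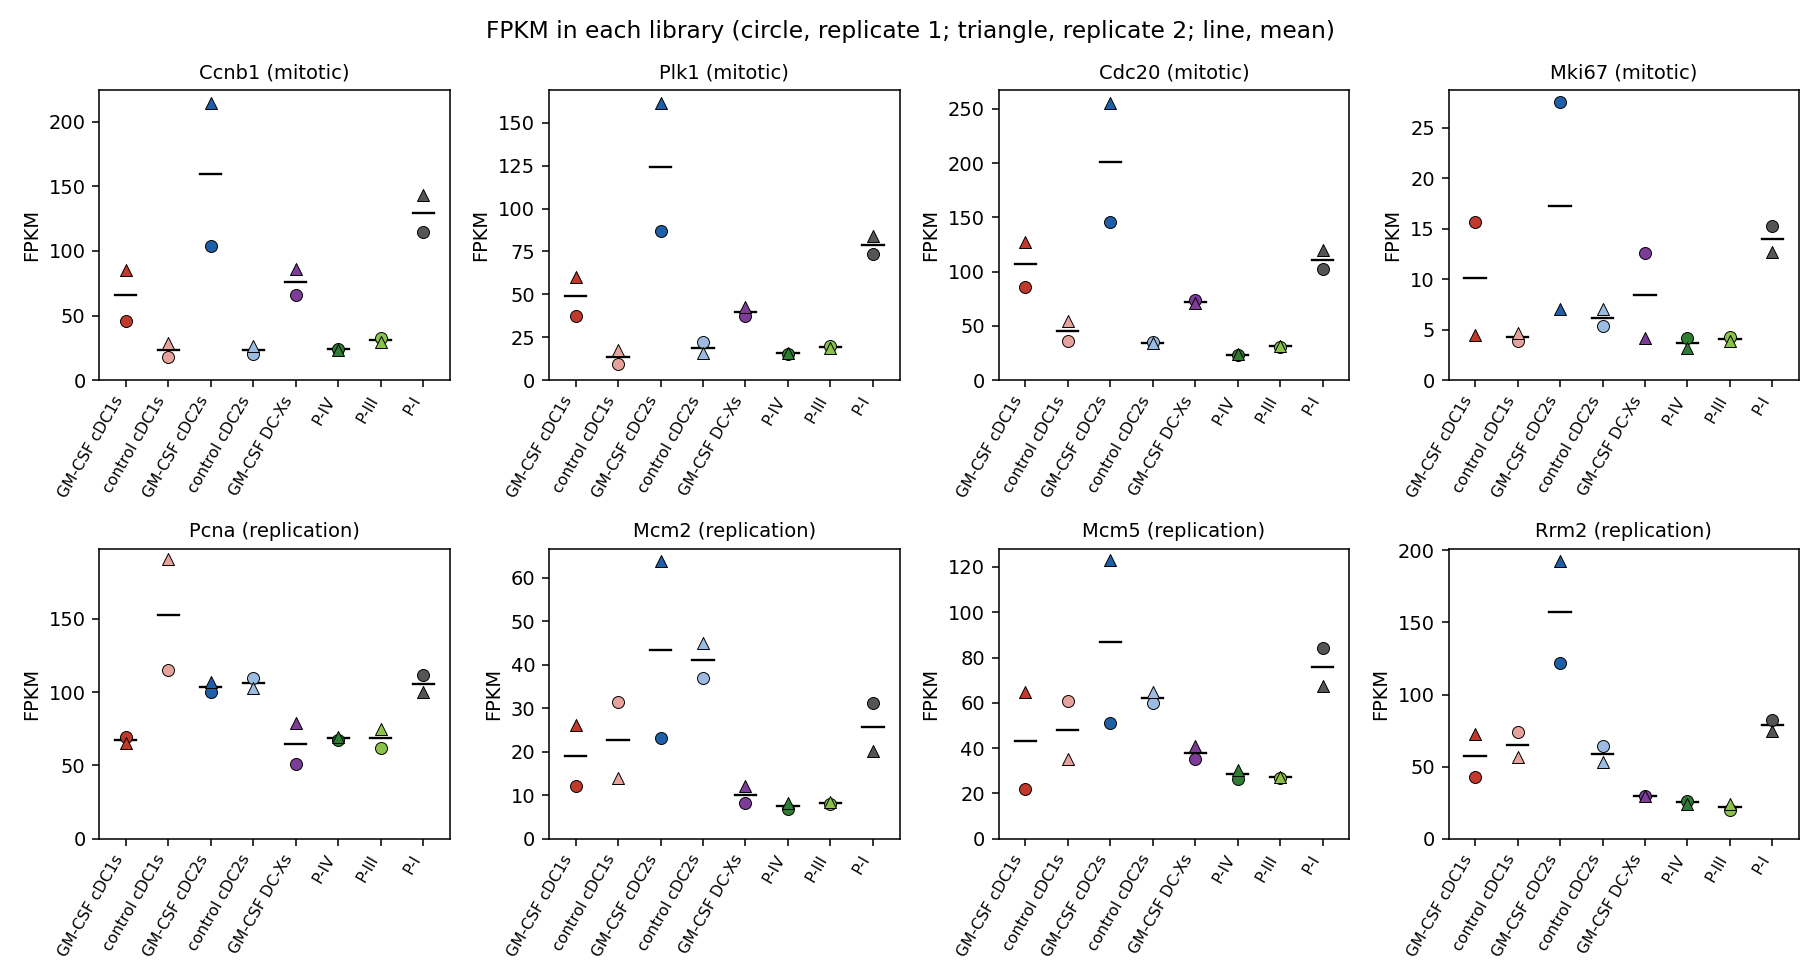
FPKM (vertical axes, from 0) of 4 mitotic and 4 replication genes in each library of the 8 groups, with circles for replicate 1, triangles for replicate 2 and a line at the mean of the 2. Ccnb1, Plk1 and Cdc20 are higher in both GM-CSF libraries than in both control libraries of cDC1s and of cDC2s, and Mcm2 and Mcm5 overlap between these groups.

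In GM-CSF cDC1s about as many mitotic genes rose as did not pass the test against control cDC1s, and part of the replication set fell. Of 30 mitotic genes 16 rose and 0 fell, where 10.4% of all tested genes rose, and of 20 replication genes 4 fell and 0 rose, where 4.41% of all tested genes fell. The median log2 fold change was 1.05 for the mitotic genes, -0.42 for the replication genes and 0.14 for all genes. Under median-of-ratios scaling the median of all genes was 0.03, the share of higher genes among all calls was 51.2% in place of 70.2%, and 13 members were called in place of 20. Both GM-CSF cDC1 libraries stood above both control cDC1 libraries in 23 of 30 mitotic genes, where 32.3% of all genes did so, and below them in 6 of 20 replication genes, where 22.1% of all genes did.

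All 5 spindle genes and all 5 genes of the midzone and cytokinesis rose in cDC1s. Kif20a, the kinesin of the central spindle, read 25.5 and 45.1 FPKM in GM-CSF cDC1s and 9.13 and 5.97 FPKM in control cDC1s, the largest change of a mitotic gene at 2.06 ± 0.32 (SE, adjusted p = 0.00177). Kif2c read 11.3 and 25.9 FPKM in GM-CSF cDC1s and 3.68 and 4.17 FPKM in control cDC1s, a change of 1.89 ± 0.34 (SE, adjusted p = 0.00337). Neither gene overlapped between the groups. Racgap1, which works with Kif23 in the complex that directs the cleavage furrow, changed by 1.66 ± 0.29 (SE, adjusted p = 0.00294).

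Of the 7 kinases and checkpoint genes 2 rose. Plk1 read 37.5 and 60.4 FPKM in GM-CSF cDC1s and 9.44 and 17.8 FPKM in control cDC1s (adjusted p = 0.00394), and Bub1b, the checkpoint protein BubR1, read 21 and 45.6 FPKM in GM-CSF cDC1s and 10.9 and 6.24 FPKM in control cDC1s. In both genes each treated library stood above both controls. Of the cyclins and their kinase, Ccnb1 and Ccna2 rose. Ccnb1 read 46.1 and 85.3 FPKM in GM-CSF cDC1s and 18.1 and 28.5 FPKM in control cDC1s, a change of 1.43 ± 0.36 (SE, adjusted p = 0.0138). Cdk1 overlapped, with 16.3 and 25.3 FPKM in GM-CSF cDC1s and 18.7 and 32.1 FPKM in control cDC1s (log2 fold change -0.26, adjusted p = 0.614). Birc5 and Ube2c overlapped too, and Mki67 and Top2a were not called (log2 fold changes 0.86 and 0.86, adjusted p = 0.321 and 0.088).

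The 4 replication genes that fell in cDC1s serve the fork and the supply of nucleotides. Pcna read 69.6 and 65.1 FPKM in GM-CSF cDC1s, against 115 and 191 FPKM in control cDC1s, a change of -1.12 ± 0.25 (SE, adjusted p = 0.00769). Dut, the dUTPase that keeps uracil out of DNA, read 10.3 and 13.6 FPKM in GM-CSF cDC1s and 27 and 44.4 FPKM in control cDC1s, a change of -1.47 ± 0.30 (SE, adjusted p = 0.0057). Gins2, of the GINS complex of the replicative helicase, read 9.26 and 13 FPKM in GM-CSF cDC1s and 21.4 and 39.8 FPKM in control cDC1s, and Tyms, thymidylate synthase, read 4.95 and 8.02 FPKM in GM-CSF cDC1s and 11.9 and 16.8 FPKM in control cDC1s. All 4 were lower in both treated libraries than in both controls. The Mcm genes did not share this: Mcm2 to Mcm7 had log2 fold changes between -0.35 and 0.23, none was called, and Mcm3 read 23.4 and 55.5 FPKM in GM-CSF cDC1s and 48.8 and 28 FPKM in control cDC1s.

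The count in cDC1s was 8 without GM-CSF cDC1s replicate 2 and 12 without control cDC1s replicate 1, and a fit of the 4 libraries alone called 0 members, with 13 mitotic and 3 replication genes at an unadjusted p under 0.05. Kif20a, Kif2c, Plk1, Racgap1 and Dut were called in each fit that left out 1 library. Progenitor markers (8 genes) summed to 57.2 and 76.9 FPKM in GM-CSF cDC1s, where 4 reached 1 FPKM in both libraries, and to 29.2 and 16.1 FPKM in control cDC1s, where 3 did. Most of this sum was Kit, with 48.5 and 70.0 FPKM in GM-CSF cDC1s and 21.2 and 11 FPKM in control cDC1s. Kit was high in both cDC2 groups too, with 69.1 and 110.3 FPKM in GM-CSF cDC2s and 65.2 and 107.5 FPKM in control cDC2s. Myb, another progenitor marker, stood the other way, with 1.35 and 1.99 FPKM in GM-CSF cDC1s and 5.54 and 2.35 FPKM in control cDC1s. Neutrophil and precursor markers summed to 4.49 and 7.18 FPKM in GM-CSF cDC1s and 0.86 and 0.656 FPKM in control cDC1s, where 5 of 11 were listed at 0. The part of such cells in the result was not tested.

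**Figure D4:**
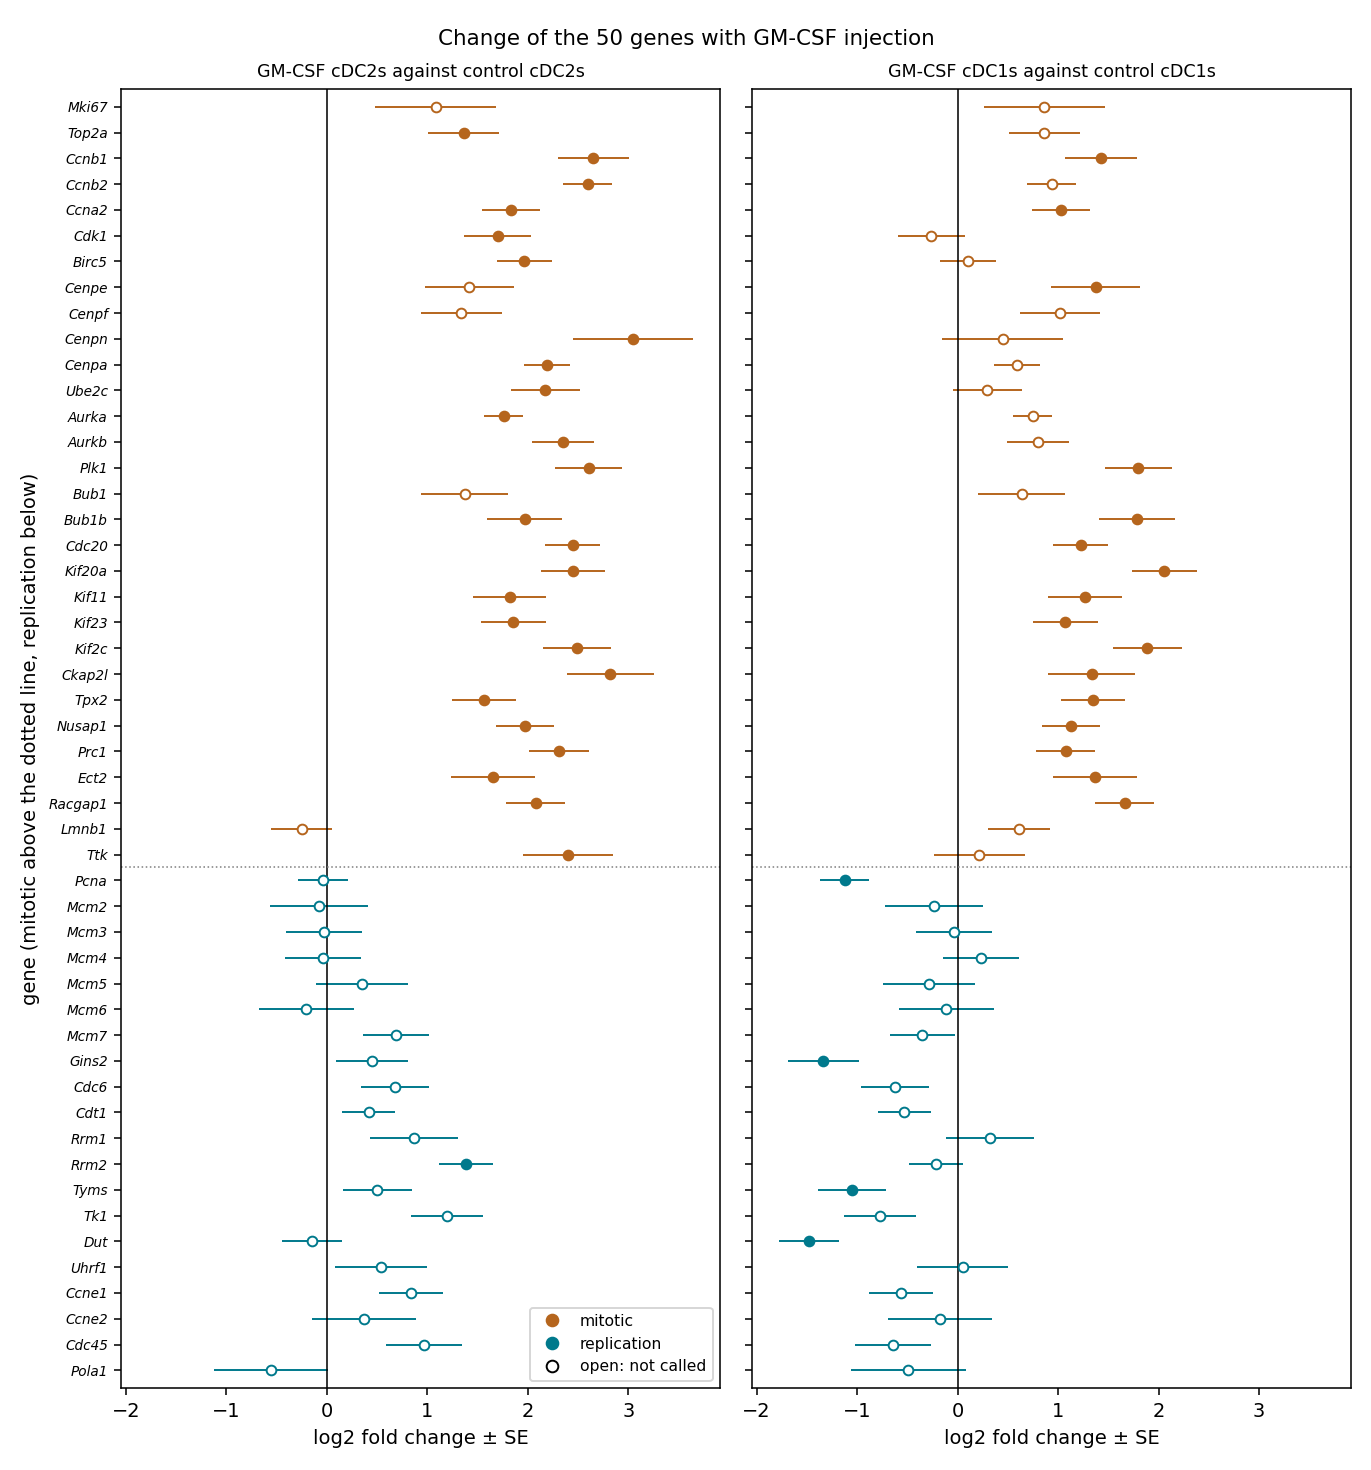
Log2 fold change ± SE on the log2(FPKM + 1) scale of each of the 50 genes, GM-CSF cDC2s against control cDC2s (left) and GM-CSF cDC1s against control cDC1s (right), 2 libraries per group, filled points called. Mitotic genes above the dotted line lie right of 0 in 29 of 30 cases in cDC2s and 29 of 30 in cDC1s, and 17 of the 20 replication genes lie left of 0 in cDC1s, against 7 of 20 in cDC2s.

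The effect of GM-CSF on the 2 subsets was compared directly. For 8 of the 50 genes the change in cDC1s was smaller than in cDC2s by the test of the difference, 6 mitotic and 2 replication genes, where 2.59% of all tested genes differed in that direction. Cdk1, with a change of -0.26 in cDC1s and 1.70 in cDC2s, differed by -1.96 ± 0.47 (SE, adjusted p = 0.0311). Ube2c differed by -1.88 ± 0.48 (SE, adjusted p = 0.0386) and Birc5 by -1.86 ± 0.39 (SE, adjusted p = 0.0215). Tk1, with a change of -0.77 in cDC1s and 1.19 in cDC2s, differed by -1.97 ± 0.51 (SE, adjusted p = 0.0398). For Plk1 and Ccnb1 the difference was -0.81 and -1.23 (adjusted p = 0.284 and 0.139) and was not called. Each of the 8 lost its call in at least one fit without a library: the count was 0 without GM-CSF cDC1s replicate 1 or GM-CSF cDC2s replicate 2, 2 without control cDC2s replicate 1, 4 without control cDC1s replicate 2, 13 without GM-CSF cDC2s replicate 1 and 16 without control cDC1s replicate 1.

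After GM-CSF, cDC1s had lower levels of both sets than cDC2s. Of 30 mitotic genes 19 were lower and of 20 replication genes 10 were lower, where 8.8% of all tested genes were lower, and 0 were higher. Prc1, which bundles microtubules of the central spindle, read 16.8 and 30.3 FPKM in GM-CSF cDC1s and 54.4 and 101 FPKM in GM-CSF cDC2s, a difference of -1.67 ± 0.30 (SE, adjusted p = 0.0014). Uhrf1, which recruits the maintenance DNA methyltransferase, read 7.18 and 24.1 FPKM in GM-CSF cDC1s and 36.1 and 90.5 FPKM in GM-CSF cDC2s, a difference of -2.02 ± 0.46 (SE, adjusted p = 0.00671). The subsets did not overlap in either gene. Markers of other cells differed between these groups too: summed B cell markers (8 genes) were 17.1 and 14.9 FPKM in GM-CSF cDC1s and 77.9 and 80.6 FPKM in GM-CSF cDC2s, and their part was not tested. The count of 29 was 4 without GM-CSF cDC1s replicate 1 and 4 without GM-CSF cDC2s replicate 2, and Aurka, Nusap1, Prc1 and Rrm2 were called in each fit without a library.

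Without GM-CSF the 2 subsets differed in 10 members, a smaller share than among all tested genes. Control cDC1s were higher than control cDC2s in 1 mitotic and 2 replication genes, where 11.2% of all tested genes were higher, and lower in 4 mitotic and 3 replication genes, where 20.6% were lower. Cdk1 read 18.7 and 32.1 FPKM in control cDC1s and 7.62 and 10.6 FPKM in control cDC2s, and Gins2 read 21.4 and 39.8 FPKM in control cDC1s and 7.21 and 10.4 FPKM in control cDC2s. Mcm4 was on the other side, with 11.2 and 16 FPKM in control cDC1s and 38.7 and 48 FPKM in control cDC2s, a difference of -1.61 ± 0.38 (SE, adjusted p = 0.00416). Gins2, Lmnb1 and Mcm4 were called in each fit without a library. The median of all genes was -0.26 here and -0.08 with median-of-ratios scaling, and the share of higher genes among all calls was 49.1% with that scaling in place of 35.1%.

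Among the CD115-high cells of treated mice, P-I carried the highest levels of both sets. In P-IV 28 of 30 mitotic genes were lower than in P-I, where 4.86% of all tested genes were lower, and in P-III 24 of 30, where 2.53% were lower. Of the 20 replication genes 5 were lower in P-IV and 6 in P-III, and no member was higher in either. Both P-IV libraries, and both P-III libraries, stood below both P-I libraries in all 50 genes, where 46.8% of all genes did so for P-IV and 39.8% for P-III. The median log2 fold change against P-I was -1.96 for mitotic and -1.19 for replication genes in P-IV, beside -0.10 for all genes, and -1.79 and -1.41 in P-III, beside -0.07 for all genes. With median-of-ratios scaling the share of higher genes among all calls was 44.9% in place of 33.4% for P-IV and 39.3% in place of 27.9% for P-III. Both comparisons share the P-I libraries.

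Ccnb2, the second B-type cyclin, changed most in P-IV. It read 35.5 and 32.2 FPKM in P-IV and 49.3 and 53.9 FPKM in P-III, against 168 and 228 FPKM in P-I, a change of -2.50 ± 0.24 (SE, adjusted p = 3.27e-05) in P-IV and -1.90 ± 0.24 (SE, adjusted p = 0.000884) in P-III. Ccnb1 read 24.2 and 23.3 FPKM in P-IV and 32.8 and 29.8 FPKM in P-III, against 115 and 143 FPKM in P-I. Plk1 read 15.5 and 15.7 FPKM in P-IV and 20.2 and 18.8 FPKM in P-III, against 73.8 and 84.3 FPKM in P-I. For all 3 genes the P-IV and the P-III libraries lay close together, well below the lower P-I library. Ube2c, Cdc20 and Ccna2 were among the other genes with log2 fold changes below -2 in P-IV. Lmnb1 changed most in P-III, with 3.69 and 6.46 FPKM in P-III and 6.98 and 5.92 FPKM in P-IV, against 27.2 and 26.2 FPKM in P-I (log2 fold change -2.23 ± 0.31 SE, adjusted p = 0.0015, in P-III). Top2a read 18.1 and 16.5 FPKM in P-IV, against 68.9 and 74.8 FPKM in P-I, a change of -1.99 ± 0.35 (SE, adjusted p = 0.00276). Mki67 read 4.17 and 3.18 FPKM in P-IV, against 15.3 and 12.7 FPKM in P-I, and was not called (log2 fold change -1.69, adjusted p = 0.12).

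The replication genes that fell in P-IV were Cdc45, Rrm2, Tyms, Cdc6 and Mcm7. Cdc45, a subunit of the active helicase, read 4.97 and 5.25 FPKM in P-IV and 4.32 and 4.84 FPKM in P-III, against 22.1 and 20.3 FPKM in P-I, a change of -1.86 ± 0.38 (SE, adjusted p = 0.00723) in P-IV. Rrm2 read 26.3 and 23.9 FPKM in P-IV and 19.6 and 23.8 FPKM in P-III, against 82.2 and 75 FPKM in P-I. Ccne1, the cyclin of the G1/S transition, fell in P-III (log2 fold change -1.52 ± 0.32 SE, adjusted p = 0.0166) and read 4.31 and 4.89 FPKM there, against 17.7 and 12.8 FPKM in P-I. Pcna showed a small difference, with 67.5 and 69.1 FPKM in P-IV, against 111 and 100.1 FPKM in P-I (log2 fold change -0.62, adjusted p = 0.172). The Mcm genes lay between -1.63 for Mcm2 and -1.04 for Mcm6 in P-IV, and of these Mcm7 was called (adjusted p = 0.0476).

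The spread used for these tests came from all 8 groups, and the CD115-high groups vary less than the rest. In a fit of the 6 CD115-high libraries alone, chosen after the data were seen, all 30 mitotic genes were lower in both comparisons, with 13 replication genes lower in P-IV and 17 in P-III. Of all 11335 genes, 653 were lower in P-IV and 432 in P-III in that fit. Without one library the count of members called in P-III was 10 (without P-III replicate 1), 12 (without P-III replicate 2), 17 (without P-I replicate 1) or 8 (without P-I replicate 2), in place of 30, and that in P-IV was 21 without P-IV replicate 2 and 20 without P-I replicate 2, in place of 33. Markers of neutrophils and their precursors moved with P-I. Their sum was 2.06 and 2.01 FPKM in P-IV and 2.64 and 1.64 FPKM in P-III, against 159.7 and 338 FPKM in P-I, where 10 of 11 reached 1 FPKM in both libraries. The largest of the 11 in P-I were S100a8, with 53.3 and 107 FPKM, and S100a9, with 36.2 and 68.9 FPKM. S100a8, S100a9, Camp, Retnlg and Ly6g were listed at 0 in both P-IV and both P-III libraries. Elane, a protease of granulocyte precursors, read 5.46 and 36.9 FPKM and Mpo 5.18 and 39 FPKM in P-I, and both were lower in the library of P-I replicate 1. Summed T cell markers (8 genes) were 10.49 and 11.0 FPKM in P-IV and 11.1 and 12.73 FPKM in P-III, against 37.47 and 20.04 FPKM in P-I. By the study's account P-I are classical monocytes. Whether the neutrophil markers came from them or from other cells was not tested, nor was the part of other cells in the higher levels of P-I.

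P-IV and P-III did not differ in any of the 50 genes by the test, where 0.591% of all tested genes differed. An unadjusted p under 0.05 in limma was reached by 467 of all 11335 genes and by 1 mitotic gene. That gene was Ccnb2, with the largest difference of a mitotic gene, -0.59 ± 0.24 (SE, adjusted p = 0.929), and the log2 differences ended at 0.62 for Ccne1. In 18 mitotic genes both P-IV libraries stood below both P-III libraries, where 29.3% of all genes did so, and in 14 replication genes above them, where 21.3% of all genes did so. Kif23, the kinesin of the cleavage furrow, was one of the first kind, with 15.6 and 13.3 FPKM in P-IV and 20.5 and 21.3 FPKM in P-III, and Ccne1 one of the second, with 6.95 and 8.27 FPKM in P-IV and 4.31 and 4.89 FPKM in P-III. A p that misses the threshold does not show that levels were equal.

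GM-CSF DC-Xs had more mRNA of several mitotic genes than P-IV, the population that makes up most of them by the study's account. Of 30 mitotic genes 5 were higher and 0 lower, where 0.273% of all tested genes were higher, and of 20 replication genes none was called. The median log2 fold change was 0.89 for mitotic, 0.17 for replication and -0.01 for all genes. In 29 of 30 mitotic genes both DC-X libraries stood above both P-IV libraries, where 24.6% of all genes did so, and in 9 of 20 replication genes, while in 3 replication genes both stood below, where 30.3% of all genes did so. Cdc20 read 73.6 and 70.8 FPKM in GM-CSF DC-Xs and 22.7 and 23.8 FPKM in P-IV, a difference of 1.59 ± 0.27 (SE, adjusted p = 0.0101). Ccnb1 read 65.7 and 86.3 FPKM in GM-CSF DC-Xs and 24.2 and 23.3 FPKM in P-IV, a difference of 1.63 ± 0.36 (SE, adjusted p = 0.0349). Kif20a, Ccnb2 and Lmnb1 were the other 3, with differences of 1.52, 1.27 and 1.59.

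Some mitotic genes barely differed between these groups. Cdk1 read 10.8 and 11.1 FPKM in GM-CSF DC-Xs and 8.96 and 9.22 FPKM in P-IV, and Birc5 read 46.7 and 43.5 FPKM in GM-CSF DC-Xs and 41.7 and 36.6 FPKM in P-IV. Plk1, with 37.2 and 42.5 FPKM in GM-CSF DC-Xs and 15.5 and 15.7 FPKM in P-IV, missed the threshold (log2 fold change 1.29, adjusted p = 0.0665). The 5 calls were not stable, and 0 of them held in every fit that left out 1 of the 4 libraries. Each of these fits also made fewer calls over all genes, and whether the loss was particular to the 5 was not tested. The difference of the mitotic mean ran from 0.82 to 1.02 in them. Against P-III, Cdc20 and Lmnb1 were higher in GM-CSF DC-Xs (log2 fold changes 1.19 and 1.92, adjusted p = 0.0254 and 0.00481), where 0.909% of all tested genes were higher, with 0 calls without GM-CSF DC-Xs replicate 1 or P-III replicate 1 and 1 without GM-CSF DC-Xs replicate 2 or P-III replicate 2. Summed neutrophil and precursor markers were 14.3 and 6.38 FPKM in GM-CSF DC-Xs and 2.06 and 2.01 FPKM in P-IV, and their part was not tested. The sort gate differs along with the population in these comparisons, and the 2 cannot be told apart.

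**Figure D5:**
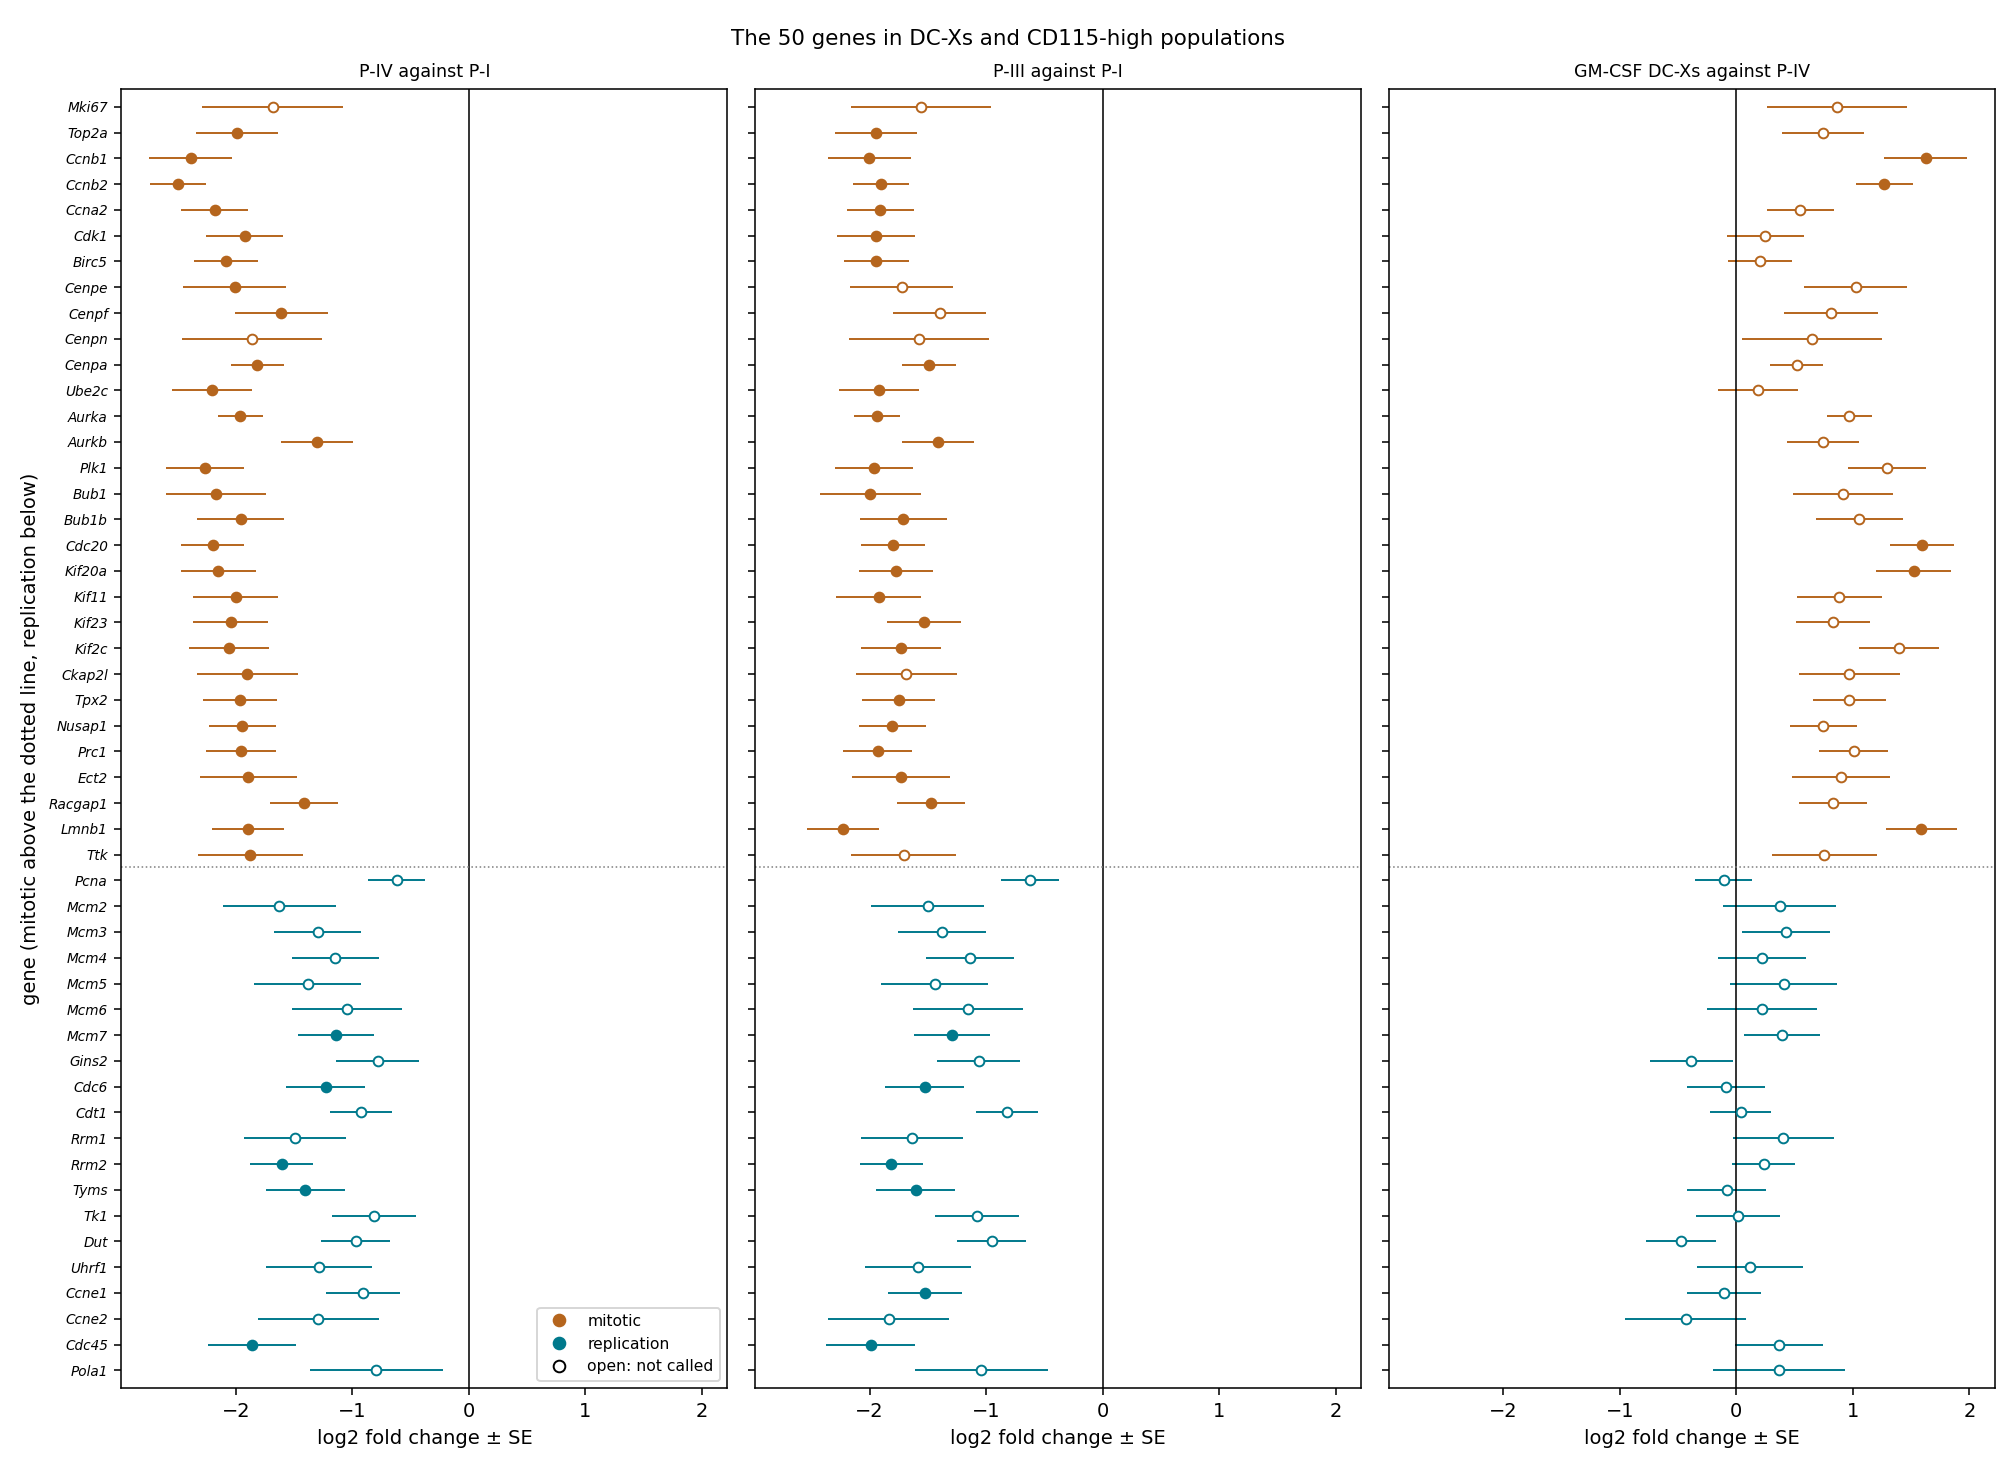
Log2 fold change ± SE on the log2(FPKM + 1) scale of each of the 50 genes for P-IV against P-I (left), P-III against P-I (middle) and GM-CSF DC-Xs against P-IV (right), 2 libraries per group, filled points called. All 50 genes lie left of 0 in the first 2 panels, and the 30 mitotic genes lie right of 0 in the third, between 0.18 and 1.63.

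Against the classical DCs of treated mice, P-IV and GM-CSF DC-Xs had lower levels of many members. In P-IV 29 of 30 mitotic and 14 of 20 replication genes were lower than in GM-CSF cDC2s, where 8.45% of all tested genes were lower. Cdc20 differed most, with 22.7 and 23.8 FPKM in P-IV and 146 and 256 FPKM in GM-CSF cDC2s, a difference of -2.999 ± 0.27 (SE, adjusted p = 6.98e-06). Against GM-CSF cDC1s, 14 mitotic and 2 replication genes were lower in P-IV, where 6.49% of all tested genes were lower, and the count of 16 was 5 without P-IV replicate 2, 7 without GM-CSF cDC1s replicate 2 and 10 without P-IV replicate 1. GM-CSF DC-Xs were lower than GM-CSF cDC2s in 20 mitotic and 12 replication genes, where 7.96% of all tested genes were lower, with Rrm2 the largest of them at -2.33 ± 0.27 (SE, adjusted p = 5.33e-05). That count of 32 was 13 without GM-CSF cDC2s replicate 2, 18 without GM-CSF DC-Xs replicate 1 and 20 without GM-CSF DC-Xs replicate 2, and with median-of-ratios scaling the share of higher genes among all calls was 56.8% in place of 46.0%. GM-CSF DC-Xs and GM-CSF cDC1s differed in 3 members, where 7.49% of all tested genes were lower in GM-CSF DC-Xs: Birc5, Ube2c and Dut were lower, and the count was 1 without GM-CSF cDC1s replicate 2 or GM-CSF DC-Xs replicate 2. The cDC comparisons with P-IV and with DC-Xs share the treated cDC libraries.

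Across all 8 groups, GM-CSF cDC2s had the highest mean FPKM for 27 of 30 mitotic genes and P-I the second highest for 28. The lowest mean fell in P-IV for 12, in control cDC1s for 11, in control cDC2s for 5 and in P-III for 2. The order of the replication genes was less uniform. GM-CSF cDC2s were highest for 13 of 20, control cDC1s for 4 (Pcna, Gins2, Tyms and Dut), control cDC2s for 2 and P-I for 1, and P-III was lowest for 14. GM-CSF cDC2s and P-I were neighbours in the order that could overlap: Aurka, the centrosome kinase, read 84.4 and 86.9 FPKM in GM-CSF cDC2s and 67.7 and 86.3 FPKM in P-I. Pcna had its highest value of any library, 191 FPKM, in control cDC1s replicate 2, and Ccnb1 had its highest, 215 FPKM, in GM-CSF cDC2s replicate 2.

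The 3 longest transcripts behaved differently from the rest between replicates. Mki67, the proliferation antigen Ki-67, Cenpe and Cenpf are the only members over 6000 bases. Mki67 read 27.5 and 7.06 FPKM in GM-CSF cDC2s and 5.41 and 7.01 FPKM in control cDC2s, and in cDC1s 15.7 and 4.49 FPKM in GM-CSF cDC1s and 3.88 and 4.69 FPKM in control cDC1s. One treated library was high and the other at the level of the controls in both subsets. The 3 genes were lower in replicate 2 than in replicate 1 by a median of 1.05 (log2) in GM-CSF cDC2s and 1.17 in GM-CSF cDC1s, and by 0.72 in GM-CSF DC-Xs. The 47 shorter members were higher in replicate 2, by medians of 0.76 and 0.98 in GM-CSF cDC2s for those up to 3000 and those of 3000 to 6000 bases. In P-IV the 3 genes differed between replicates by a median of 0.24. With the length correction 27 of 30 mitotic genes were called in cDC2s, and the cause of the difference between replicates was not tested. Leaving these 3 out gave mitotic means of 5.89 and 6.64 in GM-CSF cDC2s, against 4.13 and 4.31 in control cDC2s.

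Further genes of the same processes, none of them among the 50, were counted in the same fit. Of 59 other mitotic genes 43 rose in GM-CSF cDC2s and 19 in GM-CSF cDC1s, each against its control, where 3.21% and 10.4% of all tested genes rose, and none fell in either. The median log2 fold change of the 59 was 1.69 in cDC2s and 0.76 in cDC1s. Dlgap5, a spindle protein, read 28.6 and 46.5 FPKM in GM-CSF cDC2s and 4.84 and 5.44 FPKM in control cDC2s (log2 fold change 2.61 ± 0.30 SE, adjusted p = 0.00045). Nek2, a centrosome kinase, read 15.2 and 28 FPKM in GM-CSF cDC1s and 2.78 and 4.32 FPKM in control cDC1s (log2 fold change 2.27 ± 0.39 SE, adjusted p = 0.00282). Cdc25b, the phosphatase that activates Cdk1, read 13.1 and 14.9 FPKM in GM-CSF cDC1s and 1.9 and 0.838 FPKM in control cDC1s (log2 fold change 2.70 ± 0.37 SE, adjusted p = 0.00107). In P-IV 51 of the 59 were lower than in P-I, where 4.86% of all tested genes were lower, and 4 were higher in GM-CSF DC-Xs than in P-IV, where 0.273% of all tested genes were higher.

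Of 51 other replication genes 3 rose and 0 fell in cDC2s, where 3.21% of all tested genes rose, and 13 fell and 0 rose in cDC1s, where 4.41% of all tested genes fell. Tipin, a fork protection protein, read 13.1 and 16.8 FPKM in GM-CSF cDC1s and 39.9 and 60.8 FPKM in control cDC1s (log2 fold change -1.67 ± 0.26 SE, adjusted p = 0.00163). Dscc1, of a loader of the Pcna clamp, read 2.24 and 4.09 FPKM in GM-CSF cDC1s and 12.1 and 14.3 FPKM in control cDC1s (log2 fold change -1.81 ± 0.40 SE, adjusted p = 0.00786). Dbf4, the activator of the Cdc7 kinase, rose in cDC2s (log2 fold change 1.58 ± 0.21 SE, adjusted p = 0.00105). In P-IV 16 of the 51 were lower than in P-I, where 4.86% of all tested genes were lower.

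Of 42 tested regulators of G1 and of the cycle's transcription, 8 rose and 3 fell in cDC2s, where 3.21% of all tested genes rose and 234 of 11335 fell. In cDC1s 5 rose and 3 fell, shares near those of all tested genes (10.4% and 4.41%). Foxm1, the transcription factor of G2 genes, read 15.3 and 24.9 FPKM in GM-CSF cDC2s and 4.88 and 4.45 FPKM in control cDC2s (log2 fold change 1.86 ± 0.43 SE, adjusted p = 0.0226). Ccnd1, a D-type cyclin of G1, fell in both subsets. It read 28.4 and 27.5 FPKM in GM-CSF cDC2s and 71.9 and 125 FPKM in control cDC2s, and 10.8 and 6.94 FPKM in GM-CSF cDC1s and 19.6 and 58.9 FPKM in control cDC1s, with changes of -1.73 ± 0.42 (SE, adjusted p = 0.0278) in cDC2s and -1.86 ± 0.42 (SE, adjusted p = 0.00903) in cDC1s. Ccnd2, of the same family, read 4.25 and 3.5 FPKM in GM-CSF cDC2s and 25.7 and 28.5 FPKM in control cDC2s, a change of -2.53 ± 0.29 (SE, adjusted p = 0.000443). In cDC1s Ccnd2 was not called, with 0.921 and 0.337 FPKM in GM-CSF cDC1s and 1.05 and 2.36 FPKM in control cDC1s. In P-IV 8 of the 42 were lower than in P-I, where 4.86% of all tested genes were lower, and Btg2, an antiproliferative gene, was higher, with 291 and 312 FPKM in P-IV and 101 and 94.9 FPKM in P-I.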

How the data were processed

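Sorted spleen cells gave 16 libraries in 8 groups of 2, grouped by the sample labels. The study gives 2 mice for each population and does not say which populations share a mouse. The p-values rest on a spread between replicates pooled over all 8 groups, with 2 animals a group, and reflect nothing wider. They do not measure the spread within the compared groups alone. Libraries were made by the authors with a SMARTer kit for NovaSeq sequencing, and the submitters' processing notes name bcl2fastq 1.8.4, HISAT2 2.1.0, StringTie 1.3.4d and build mm10. The deposited table holds FPKM, which the authors scaled to transcript length and library size, for 24532 genes, with no counts. A loss of long or short transcripts in single libraries is not corrected by FPKM. In 11 libraries the spacing of low FPKM values put the depth between 24300000 and 46700000 fragments, and the depth of the other 5 is unknown.

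Genes that reached 1 FPKM in at least 2 libraries (11335) entered a limma-trend fit (limma 3.58.1, R 4.3.3) of log2(FPKM + 1), with all 16 libraries, 1 mean for each group and 8 residual degrees of freedom. On that scale the fold changes of low genes are understated. A call required a Benjamini-Hochberg adjusted p below 0.05 and a log2 fold change of 1 or more in either direction. Members and lists were chosen with earlier results of these data known. All 50 members could be named. In each comparison the named genes were up to 5 mitotic and 5 replication members with the largest called changes, Ccnb1, Plk1, Mki67, Top2a, Pcna and Mcm2 to Mcm7, and up to 4 called genes of each other list. Marker lists covered B, plasma, T and NK cells, neutrophils and precursors, erythroid cells, plasmacytoid DCs, red pulp macrophages and progenitors, and 1 further list is not reported here. The fit was tested on simulated data in which each gene had the same spread in all groups, unlike the groups measured here. That test cannot show how the fit behaves when the spread differs between groups. Alternatives were a pseudocount of 0.1, no filter, quantile normalization, median-of-ratios scaling, a length correction, library weights, a replicate block, the compared groups alone, the libraries of one sort gate and each library left out. Promoter sequences came from RefSeq.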

Additional observations from a re-analysis of the deposited data

Results flagged for a closer look

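The change with GM-CSF differed between cDC1s and cDC2s for 8 members by the test of the difference itself, in the same limma fit. The difference was largest for Tk1 at -1.97, followed by Cdk1 at -1.96, Ube2c at -1.88 and Birc5 at -1.86. It was -1.66 for Ccnb2, -1.60 for Cenpa, -1.59 for Rrm2 and -1.01 for Aurka, all on the log2 scale with cDC1s minus cDC2s. Adjusted p lay between 0.02 and 0.0457. For Ccnb2, Cenpa and Aurka both subsets had more mRNA in both GM-CSF libraries than in both control libraries. In cDC1s, Cdk1, Birc5, Ube2c and Rrm2 overlapped between treated and control libraries, and Tk1 stood lower with GM-CSF. The groups hold 2 libraries each, too few for a search for single outlying libraries.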

How the results depend on the processing

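Counts below are members called of the 50, and means are differences between groups of the library means on the log2 scale. None of the 257 called gene results changed direction under the alternatives run, and genes that were not called were left out of that count. Of the 257, 247 kept their call with a pseudocount of 0.1, 210 with no filter, 227 with quantile normalization, 206 with median-of-ratios scaling, 213 with a length correction and 219 with library weights. The groups compared alone, with 2 residual degrees of freedom for a pair of groups and more for the difference of the 2 effects, kept 136. Except where a cause is named, the cause of a change was not tested.

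For GM-CSF cDC2s against control cDC2s the count of 26 was 0 with the groups compared alone and 17 with the libraries of the same sort gate, an alternative chosen after the data were seen. Of all 11335 genes, the groups compared alone called 0 for GM-CSF in cDC2s and 0 in cDC1s. They called 2 for the difference of the 2 effects and 3 for GM-CSF DC-Xs against P-IV. For GM-CSF cDC1s against control cDC1s the count of 20 was 12 with quantile normalization, 13 with median-of-ratios scaling, 12 with the length correction, 4 with library weights, 0 with the groups alone and 6 with the same gate. For the difference of the 2 effects the count of 8 was 5 with no filter, 5 with median-of-ratios scaling, 2 with the length correction, and 0 with library weights, with the groups alone and with the same gate. For GM-CSF cDC1s against GM-CSF cDC2s the count of 29 was 1 with the groups alone and 13 with the same gate. For control cDC1s against control cDC2s the count of 10 was 4 with the length correction, 2 with library weights, 2 with the groups alone and 5 with the same gate. For P-III against P-I the count of 30 was 47 with library weights, 46 with the groups alone and 47 with the same gate. For GM-CSF DC-Xs against P-IV the count of 5 was 3 with no filter, 3 with median-of-ratios scaling, 3 with the length correction, 9 with library weights and 0 with the groups alone. Against P-III the count of 2 was 1 with no filter, 4 with quantile normalization, 5 with library weights and 1 with the groups alone. For GM-CSF DC-Xs the count was 1 against GM-CSF cDC1s with the same gate, and against GM-CSF cDC2s 17 with the groups alone and 19 with the same gate.

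The mitotic mean of control cDC1s minus control cDC2s, -0.24 as reported here, was 0.008 with quantile normalization, -0.024 with median-of-ratios scaling and 0.092 with the length correction. The replication mean of the same pair, -0.19, was -0.036, 0.041 and 0.158 in that order, so neither direction held. The mitotic mean of P-III minus P-I was -1.65 with quantile normalization and -1.65 with median-of-ratios scaling. That of P-IV minus P-I was -2.09 with a pseudocount of 0.1, -1.82 with quantile normalization, -1.83 with median-of-ratios scaling and -1.86 with the length correction.

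Leaving out 1 library in turn gave 16 to 29 calls for GM-CSF in cDC2s, 8 to 17 in cDC1s, 0 to 16 for the difference, 4 to 37 for GM-CSF cDC1s against GM-CSF cDC2s and 7 to 12 for the control subsets. The ranges were 8 to 17 for P-III and 20 to 23 for P-IV against P-I, 0 to 2 and 0 to 1 for GM-CSF DC-Xs against P-IV and P-III, 1 to 3 and 13 to 41 against GM-CSF cDC1s and GM-CSF cDC2s, and 5 to 21 and 36 to 46 for P-IV against the same. The mitotic mean ran from 1.69 to 2.24 for GM-CSF minus control cDC2s, 0.79 to 1.26 for cDC1s, -1.47 to -0.91 between the treated subsets, -0.45 to -0.04 between the control subsets, -1.89 to -1.68 for P-III and -2.08 to -1.87 for P-IV minus P-I, -0.24 to -0.15 for P-IV minus P-III and 0.82 to 1.02 for GM-CSF DC-Xs minus P-IV. The replication mean ran from -0.10 to 0.91, -0.91 to -0.03, -1.57 to -0.56, -0.25 to -0.13, -1.50 to -1.20, -1.34 to -1.03, 0.11 to 0.23 and -0.01 to 0.20 in the same order. The mitotic minus the replication mean ran from 1.34 to 1.78, 1.29 to 1.70, -0.34 to 0.10, -0.22 to 0.11, -0.69 to -0.17, -1.05 to -0.53, -0.45 to -0.28 and 0.62 to 1.04.

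The labels do not say that a replicate number marks a shared mouse or day, and the numbers were not taken as pairs. Deviations of same-numbered libraries correlated at -0.20 to 0.67 over all pairs of groups, at 0.43 to 0.67 among the 3 treated groups of the CD11c-high gate, at 0.396 between GM-CSF and control cDC2s and at -0.01 between GM-CSF and control cDC1s. With the replicate number as a block the count was 14 for the difference of the 2 effects and 4 for GM-CSF DC-Xs against P-III, and no call was lost. The depth of 5 libraries is unknown, so no floor was set for genes at low FPKM.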
